A study of Mus musculus with 4 samples.

Results

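Cholesterol and fatty acids are built from acetyl-CoA by a chain of enzymes that macrophages and osteoclasts share with most cells. Transcripts of 37 mouse genes of this chain were followed, chosen by name as enzymes of cholesterol synthesis (18 sterol enzymes), regulators of the pathway and a sterol carrier (6 regulators), and enzymes of fatty-acid synthesis, desaturation, elongation and activation (13 fatty-acid enzymes). All 37 were found among the 23920 genes of the expression table, and all 37 reached the minimum of 1 FPKM (mapped fragments scaled to the length of the transcript and the depth of the library) in at least 1 library, as did 10763 genes in all.

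The study asked how IL-3 acts through STAT5 on bone marrow-derived macrophage-like cells (BMMs) that receive RANKL, the cytokine that drives osteoclast differentiation. RNA was sequenced from 4 cultures of C57BL/6 cells, labelled as osteoclasts or their precursors from males of 8 weeks, although the culture methods give a younger age, after 24 h, all with M-CSF at 30 ng/mL. *Stat5* fl/fl control cells, which carry floxed *Stat5a* and *Stat5b* alleles without Cre, were left with M-CSF alone, given RANKL at 100 ng/mL, or given the same RANKL together with IL-3 at 1 ng/mL. Cells with the floxed alleles and Mx1-Cre (*Stat5* cKO) were given both RANKL and IL-3 at those doses. Mx1-Cre is driven by an interferon-inducible promoter and is not confined to macrophages, and mice of both genotypes, which were littermates, had been given poly I:C to induce it. Each condition had 1 library, so every difference below is between 2 libraries, has no replicate check and carries no p-value. Below, the libraries are named M-CSF, RANKL, RANKL with IL-3, and cKO, and 4 values in a row follow that order.

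The libraries were close in depth, at an estimated 33.02 to 36.78 M fragments (M, 1e6). *Stat5a* stood at 9.89, 10.8, 12 and 0.168 FPKM and *Stat5b* at 10.8, 7.80, 8.86 and 0.191 FPKM, so both targeted genes were near 0 in the cKO library alone. The cells carried osteoclast and macrophage markers to different extents: the summed level of 10 osteoclast markers was 45.9, 1277, 141 and 518 FPKM and that of 9 macrophage markers 3966, 1326, 2409.5 and 1561 FPKM. Of the osteoclast markers, *Calcr* was listed at 0 in all 4 libraries and *Oscar* at no more than 0.698 FPKM. *Itgb3* was the 1 osteoclast marker lower with RANKL than with M-CSF, at 1.38, 0.818, 1.13 and 0.400 FPKM. Summed markers of dendritic cells stood at 239, 159, 699 and 168 FPKM and those of neutrophils at 1137, 648, 969 and 679 FPKM. Within the dendritic-cell sum, *Cd74* alone gave 434 FPKM with RANKL and IL-3. *Flt3*, *Zbtb46* and *Ccr7*, on the same list, did not pass 0.597 FPKM in any library. Whether the dendritic-cell sum came from dendritic cells was not tested. All 6 adipocyte markers were under 0.1 FPKM in every library, and summed markers of hepatocytes, T cells, B cells and erythroid cells did not pass 1.49 FPKM, while those of fibroblasts or stromal cells reached 4.80 FPKM with RANKL, mostly from *Dcn* at 3.71 FPKM. These mixtures were not constant across the libraries, and their part in the results below was not tested. In bulk RNA, fewer cells of a type and less RNA of a gene per cell cannot be told apart.

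In the mevalonate branch, acetyl-CoA units are joined and reduced to mevalonate, which is phosphorylated and decarboxylated to isoprenoid units. Farnesyl units made from these are condensed to squalene, which is closed to lanosterol and trimmed to cholesterol. The transcription factors SREBP-1 and SREBP-2, encoded by *Srebf1* and *Srebf2*, are held in the endoplasmic reticulum by SCAP and the INSIG proteins when sterols are plentiful, and when sterols are scarce they are cut free and raise transcription of the pathway's genes. Many such promoters pair a sterol regulatory element with a box for the factor NF-Y.

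Promoter windows from RefSeq (build GRCm38.p6, 250 bases before to 50 bases after a transcript start) were found for 30 of the 37 genes and not for *Fdps*, *Fdft1*, *Sqle*, *Stard4*, *Scd1*, *Scd2* and *Fads1*. The NF-Y box CCAAT was present on either strand in 14 of 15 sterol enzymes (93.3%), in 4 of 5 regulators and in 6 of 10 fatty-acid enzymes, against 43.5% of the 8726 tested genes with a window and 41.1% of all genes with one. The sterol regulatory element TCACNCCAC was matched in 2 of the 30 genes, *Hmgcs1* and *Acsl1*, against 1.34% of tested genes. The STAT motif TTCNNNGAA, the letters to which STAT5 is known to bind, was matched in *Ebp* alone among the 30, against 8.23% of tested genes. The E-box CACGTG was held by 6 of 30 genes against 12.2%, and the Sp1 box GGGCGG by 25 of 30 against 69.4%. Of the 30 genes, 7 had more than 1 window, which gives a match more room, and a match is a description of letters, not of a bound site. No motif contains another.

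The 250 bases before the start are shown for 6 genes that mark the range of responses described below. *Hmgcs1*, *Cyp51*, *Insig1* and *Fads2* were at least 2-fold lower with RANKL than with M-CSF, *Acsl1* was at least 2-fold higher, and *Fasn* took the opposite course to most sterol enzymes. Each is written 5′ to 3′ in the direction of its transcript, and capitals mark matches to TCACNCCAC or CCAAT on either strand (read as ATTGG on the other strand).
*Hmgcs1*, chr13:119690101-119690350, plus strand: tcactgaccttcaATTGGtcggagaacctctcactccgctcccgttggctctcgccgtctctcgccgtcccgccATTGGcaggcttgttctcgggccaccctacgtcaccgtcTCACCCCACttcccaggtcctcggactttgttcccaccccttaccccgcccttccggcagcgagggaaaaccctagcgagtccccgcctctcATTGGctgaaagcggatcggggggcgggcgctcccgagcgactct
*Cyp51*, chr5:4104698-4104947, minus strand: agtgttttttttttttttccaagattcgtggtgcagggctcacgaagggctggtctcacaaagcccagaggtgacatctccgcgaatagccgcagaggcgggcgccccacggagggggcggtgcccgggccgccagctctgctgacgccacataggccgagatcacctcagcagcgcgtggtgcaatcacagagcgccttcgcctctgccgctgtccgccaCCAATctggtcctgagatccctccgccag
*Insig1*, chr5:28071162-28071411, plus strand: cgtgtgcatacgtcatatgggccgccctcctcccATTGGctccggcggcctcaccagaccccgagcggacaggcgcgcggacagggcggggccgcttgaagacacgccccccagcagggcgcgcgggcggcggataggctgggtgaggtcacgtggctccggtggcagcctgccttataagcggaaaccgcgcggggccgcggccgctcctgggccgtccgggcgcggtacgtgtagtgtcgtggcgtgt
*Fads2*, chr19:10101504-10101753, minus strand: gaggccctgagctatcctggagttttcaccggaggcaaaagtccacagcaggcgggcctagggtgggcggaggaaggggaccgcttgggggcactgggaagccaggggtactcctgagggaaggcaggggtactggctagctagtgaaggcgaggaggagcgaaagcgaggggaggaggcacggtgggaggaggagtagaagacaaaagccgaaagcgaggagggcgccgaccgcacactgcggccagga
*Acsl1*, chr8:46490716-46490965, plus strand: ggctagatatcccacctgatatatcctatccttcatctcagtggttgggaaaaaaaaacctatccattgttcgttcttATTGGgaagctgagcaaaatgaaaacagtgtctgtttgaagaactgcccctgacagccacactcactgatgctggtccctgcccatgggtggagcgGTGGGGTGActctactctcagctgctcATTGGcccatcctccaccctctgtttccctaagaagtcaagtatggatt
*Fasn*, chr11:120824548-120824797, minus strand: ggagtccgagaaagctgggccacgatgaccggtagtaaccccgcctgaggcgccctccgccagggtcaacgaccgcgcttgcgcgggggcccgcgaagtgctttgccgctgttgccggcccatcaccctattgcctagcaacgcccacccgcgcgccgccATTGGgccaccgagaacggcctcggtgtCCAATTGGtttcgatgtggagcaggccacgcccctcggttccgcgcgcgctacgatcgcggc
*Hmgcs1* carried its sterol regulatory element at 137 bases before the start and 3 CCAAT boxes upstream of the start, with a 4th just inside the transcript. *Cyp51* and *Insig1* held 1 CCAAT box each in these windows, and *Fads2* held neither motif. *Acsl1* had 2 windows, and the one shown, that of the start with the higher coordinate, was chosen because it held the sterol regulatory element. The element lay on the other strand, and the window also held 2 CCAAT boxes. The window not shown held neither motif, and which start was in use in these cells was not tested. In *Fasn*, 2 of the 3 CCAAT boxes share letters.

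With RANKL, transcripts of the sterol enzymes stood lower than with M-CSF along the whole chain from *Hmgcs1* to *Dhcr7*. All 18 were lower, and their median log2 ratio was -0.85 on the log2(FPKM + 1) scale, used for every log2 ratio and every count of 2-fold genes below, while folds printed for single genes are of FPKM. Of the 18, 8 were at least 2-fold lower and 0 were at least 2-fold higher, against 6.88% of all tested genes lower and 5.44% higher. The median log2 ratio over all tested genes was 0.14 in this comparison, so that relative to it the sterol median was -0.99. Their summed level was 458, 207, 265 and 249 FPKM, and without *Fdps*, the most abundant in all but the RANKL library, 349, 177, 215 and 207 FPKM.

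**Figure D1:**
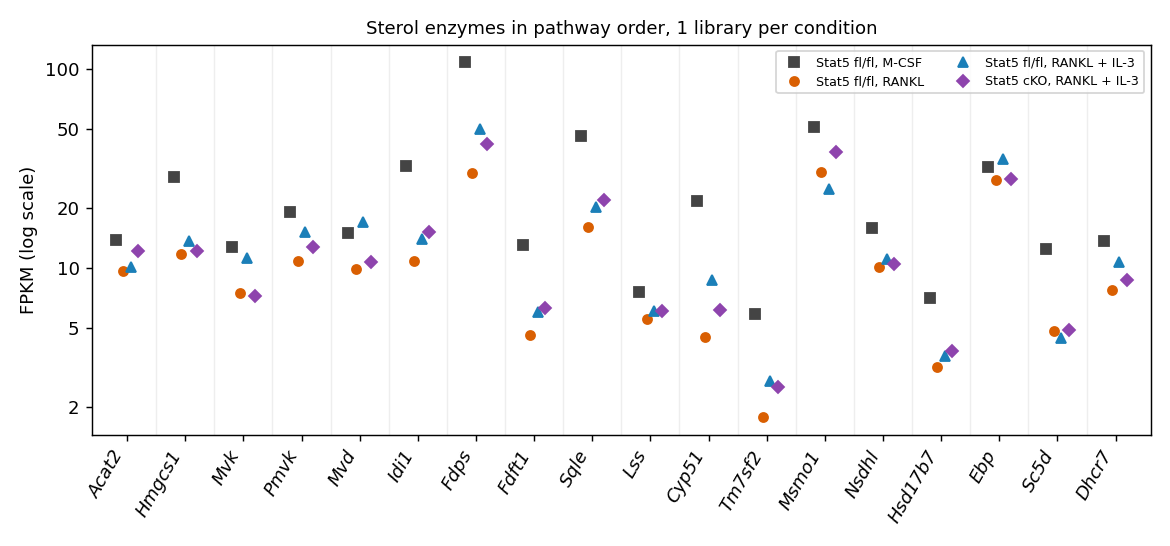
Levels of the 18 sterol enzymes in pathway order, in FPKM on a log axis, with 1 point per library. The M-CSF point is the highest of the 4 for 16 enzymes, and *Mvd* and *Ebp*, highest with RANKL and IL-3, are the exceptions.

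The early steps were lower to unequal extents. *Acat2*, which joins 2 acetyl-CoA units, stood at 13.9, 9.61, 10.1 and 12.1 FPKM, a log2 ratio of -0.49 with RANKL. *Hmgcs1*, the synthase that makes HMG-CoA, stood at 28.8, 11.7, 13.6 and 12.2 FPKM, 2.47-fold lower with RANKL. The M-CSF library was far above the other 3, which lay close together. *Mvk*, *Pmvk* and *Mvd*, which phosphorylate and decarboxylate mevalonate, were 1.52- to 1.75-fold lower with RANKL, short of 2-fold. The isomerase gene *Idi1* stood at 32.4, 10.8, 14.0 and 15.2 FPKM, 2.99-fold lower. *Fdps*, farnesyl diphosphate synthase, whose enzyme in osteoclasts is the target of nitrogen-containing bisphosphonates, stood at 108, 30, 50 and 41.9 FPKM. Its RANKL level was 3.62-fold below that with M-CSF, a log2 ratio of -1.82.

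The enzymes that commit farnesyl units to sterols were lower as well. *Fdft1*, squalene synthase, stood at 13.1, 4.58, 5.98 and 6.32 FPKM, and *Sqle*, squalene epoxidase, at 46.3, 16.1, 20.3 and 22.0 FPKM, which is 2.86-fold and 2.88-fold lower with RANKL. *Lss*, the cyclase of the next step, differed less, at 7.57, 5.52, 6.10 and 6.05 FPKM. *Fdft1* shares 774 bases of exon with *Ctsb* on the opposite strand, and no strand information was stated for the libraries. Reads of the pair therefore cannot be told apart there, and *Ctsb* itself stood at 1850.0, 655, 1169 and 836 FPKM. Its part in the *Fdft1* values was not tested.

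Of the enzymes that turn lanosterol into cholesterol, *Cyp51*, the lanosterol 14-alpha-demethylase, differed the most of all 18. It stood at 21.8, 4.49, 8.70 and 6.13 FPKM, 4.85-fold lower with RANKL (log2 ratio -2.05) and rank 154 from the lowest of the 10763 tested genes. *Tm7sf2*, a sterol 14-reductase, stood at 5.89, 1.78, 2.69 and 2.53 FPKM, and *Sc5d*, the sterol C5-desaturase, at 12.5, 4.80, 4.44 and 4.87 FPKM. For *Sc5d* the 3 libraries with RANKL lay close together and well under M-CSF. *Tm7sf2* shares 532 bases of exon with *Vps51* on the same strand, *Vps51* being at 19.2 to 20.7 FPKM, and *Cyp51* shares 166 bases with *Akap9* on the other strand. *Hsd17b7*, a 3-ketosteroid reductase, was just short of 2-fold on the log2(FPKM + 1) scale (log2 ratio -0.94) at 7.04, 3.19, 3.61 and 3.83 FPKM. *Msmo1*, *Nsdhl* and *Dhcr7* were 1.56- to 1.76-fold lower, and *Ebp*, the sterol isomerase, only 1.17-fold lower at 32.3, 27.7, 35.3 and 27.9 FPKM.

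Among the regulators, *Insig1*, itself a known target of SREBP and the retention partner of SCAP, had the lowest log2 ratio of all 37 genes, while the fold in FPKM was larger for *Fads2*, described below. It stood at 31.4, 6.42, 12.6 and 9.39 FPKM, 4.89-fold lower with RANKL (log2 ratio -2.13). *Stard4*, a carrier that moves cholesterol between membranes, stood at 10, 4.48, 5.22 and 4.57 FPKM and just passed 2-fold (log2 ratio -1.01). *Srebf2*, which encodes the SREBP mainly tied to cholesterol synthesis, stood at 49.3, 26.0, 30.7 and 28.0 FPKM, and *Insig2* at 10.1, 6.66, 9.10 and 7.81 FPKM. The group was not uniform. *Srebf1*, whose products act chiefly on fatty-acid genes, stood at 22.4, 21.2, 19.7 and 21.7 FPKM, and *Scap* was higher with RANKL, at 12.9, 16.7, 12.5 and 15.8 FPKM. With RANKL, 2 of 6 regulators were at least 2-fold lower, 0 higher, against 6.88% and 5.44% of all tested genes, and the median log2 ratio was -0.72.

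The fatty-acid enzymes split by step. The 3 genes that assemble the chain in the cytosol stood higher with RANKL, all short of 2-fold. *Fasn*, fatty-acid synthase, stood at 16.6, 25.7, 15.9 and 25.1 FPKM, *Acaca*, acetyl-CoA carboxylase, at 5.82, 7.52, 5.18 and 7.39 FPKM, and *Acly*, ATP-citrate lyase, at 51.3, 58.6, 50.3 and 55.4 FPKM. In all 3 the RANKL library was the highest and the RANKL with IL-3 library the lowest, and their log2 ratios with RANKL were 0.19 to 0.60. RANKL was the highest library for 40.4% of all tested genes, and RANKL with IL-3 the lowest for 29.8%. The *Acly* ratio of 0.19 was 0.05 above the median of all tested genes.

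The desaturases, by contrast, stood lower with RANKL. *Fads2*, the delta-6 desaturase of polyunsaturated fatty acids, stood at 19.1, 3.82, 3.76 and 6.42 FPKM, 5.0-fold lower (log2 ratio -2.06). Its partner *Fads1*, the delta-5 desaturase, stood at 48.9, 22.2, 32.3 and 26.7 FPKM, 2.2-fold lower. The stearoyl-CoA desaturases, which make monounsaturated fatty acids, came near to 2-fold on the log2(FPKM + 1) scale. *Scd1* stood at 2.78, 0.913, 1.09 and 1.69 FPKM (log2 ratio -0.98) and *Scd2* at 14.6, 7.31, 15.9 and 10.3 FPKM (-0.91). The *Scd* genes are paralogues, and how reads that fit more than one of them were divided was not tested. Of the elongases, *Elovl1* stood at 101, 107, 110.3 and 116 FPKM, *Elovl5* at 29.1, 21.6, 31.3 and 24.2 FPKM, and *Elovl6* at 3.19, 3.20, 2.27 and 2.73 FPKM. *Srebf1* shares 109 bases of exon with *Rai1*, *Elovl1* 53 bases with *Cdc20* and *Acsl3* 244 bases with *Utp14b*. *Elovl6* was the one member of the 37 whose RANKL ratio lay within its counting error.

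The acyl-CoA synthetases, which activate long-chain fatty acids for use, differed from each other. *Acsl1* stood at 13.7, 45.1, 31.9 and 34.2 FPKM, 3.28-fold higher with RANKL (log2 ratio 1.65), and was the only one of the 37 genes at least 2-fold higher. *Acsl3* stood at 6.48, 2.96, 3.58 and 3.65 FPKM and *Acsl4* at 24.6, 21.1, 27.8 and 23.9 FPKM, both lower with RANKL than with M-CSF. The log2 ratios, -0.92 and -0.21, were short of 2-fold, though *Acsl3* was 2.19-fold lower in FPKM and passes 2-fold with the smaller pseudocount and with its most abundant transcript. In all, the 13 fatty-acid enzymes had a median log2 ratio of -0.21, with 2 at least 2-fold lower and 1 higher, against 6.88% and 5.44% of all tested genes. Their summed level was 337, 327, 331 and 337 FPKM. The fatty-acid sum thus ranged only from 327 to 337 FPKM across the libraries, but single members were not that steady. With RANKL against M-CSF, 6 of the 13 had a log2 ratio above 0 and 7 below it. *Elovl1* alone gave 101 to 116 FPKM of the sum.

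**Figure D2:**
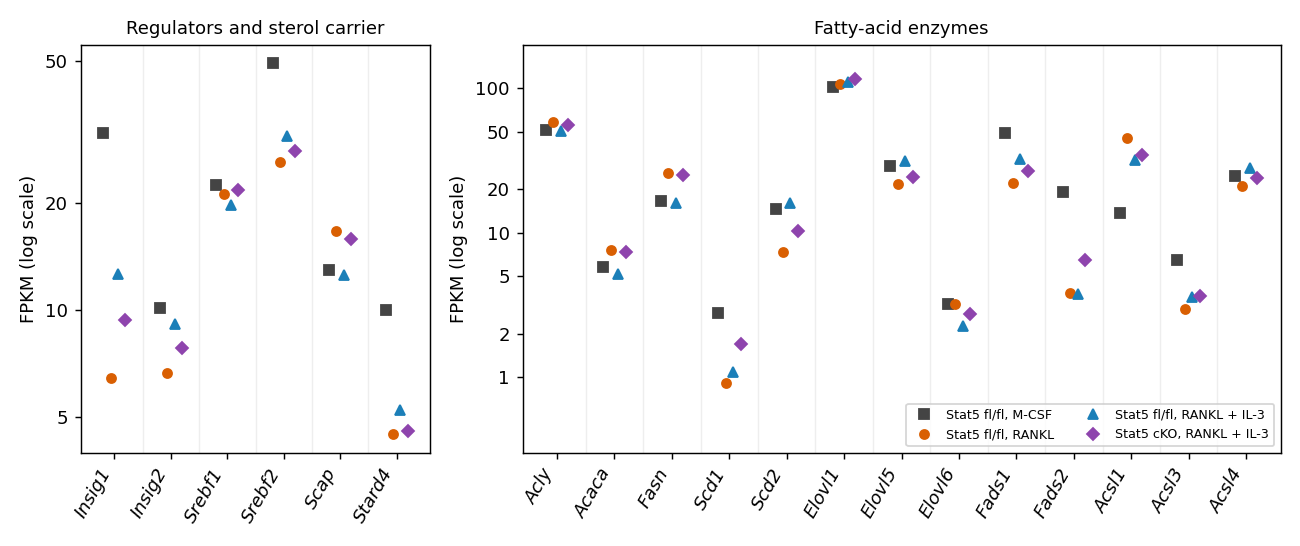
Levels of the 6 regulators (left) and 13 fatty-acid enzymes (right) in FPKM on log axes, with 1 point per library. *Insig1* and *Fads2* have the M-CSF point far above the other 3 libraries, and *Acsl1* has it far below.

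Counting error was small beside these differences. Half-widths of approximate 95% intervals of the log2 ratio, from the fragments that FPKM, transcript length and estimated depth imply, were 0.04 to 0.26 over all members and comparisons, and the fewest fragments implied were 91, for *Tm7sf2* with RANKL. For 36 of the 37 genes the interval for RANKL against M-CSF excluded 0. No such intervals were computed for the other tested genes, so this count has no share of all genes beside it. These intervals cover counting error only and say nothing of the spread between cultures or mice.

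With IL-3 added to RANKL, the 12 members that were at least 2-fold lower with RANKL all stood nearer to their RANKL level than to their M-CSF level. Of the 37 genes, 0 were at least 2-fold lower than with RANKL alone and 1 was at least 2-fold higher, *Scd2* (log2 ratio 1.02), against 3.47% of all tested genes lower and 6.11% higher. Of the 18 sterol enzymes, 16 stood higher than with RANKL alone, with a median log2 ratio of 0.33, against a median over all tested genes of -0.15. *Cyp51* (0.82), *Fdps* (0.72), *Mvd* (0.72) and *Insig1* (0.87) were the highest of the sterol enzymes and regulators. *Msmo1*, the C4-methylsterol oxidase, listed in the table under its older symbol *Sc4mol*, was an exception at 51.4, 30.4, 24.8 and 38.3 FPKM, lowest with IL-3. *Fasn* was the lowest of the fatty-acid enzymes in this comparison (log2 ratio -0.66). For 6 genes, *Acat2*, *Nsdhl*, *Sc5d*, *Scd1*, *Elovl1* and *Fads2*, the ratio lay within counting error.

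The library with RANKL and IL-3 was also set against M-CSF directly, with no value from the RANKL library. Sterol enzymes stood lower here too, with a median log2 ratio of -0.85, while the median over all tested genes was 0.00. This comparison and that of RANKL against M-CSF share the M-CSF library, so they are not independent. Of the 18, 8 were at least 2-fold lower, namely *Hmgcs1*, *Idi1*, *Fdps*, *Fdft1*, *Sqle*, *Cyp51*, *Msmo1* and *Sc5d*, with log2 ratios of -1.31 to -1.01, as were *Insig1* (-1.26) and *Fads2* (-2.08). These 10 of 37 members stand against 1.42% of all tested genes. *Acsl1* was the 1 member at least 2-fold higher (1.16), against 2.50% of all tested genes. *Fads2* had rank 17 from the lowest of all tested genes. *Mvd* and *Ebp* stood slightly above their M-CSF level, at log2 ratios of 0.17 and 0.12. Osteoclast markers in the same 2 libraries summed to 45.9 and 141 FPKM and macrophage markers to 3966 and 2409.5 FPKM, whose part in these ratios was not tested.

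**Figure D3:**
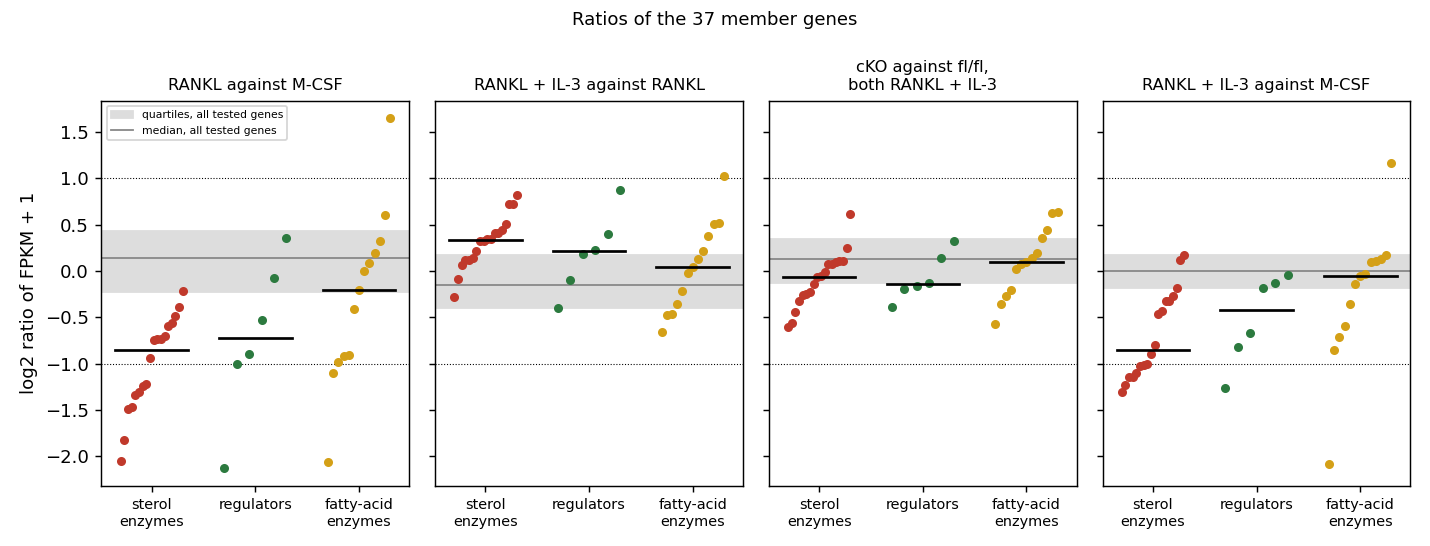
Log2 ratios of FPKM + 1 for the 37 genes by group in the 4 comparisons. Each point is a gene, black bars are group medians, grey lines and bands are the median and quartiles of all tested genes, and dotted lines mark 2-fold. Sterol medians lie at -0.85, 0.33, -0.07 and -0.85 from left to right.

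The course over the libraries was also read as an order of levels. M-CSF was the highest and RANKL the lowest of the 4 libraries in 13 of 18 sterol enzymes, 4 of 6 regulators and 3 of 13 fatty-acid enzymes, 20 of 37 members, against 13.5% of all tested genes. M-CSF was the highest library in 16 sterol enzymes and 24.9% of all tested genes, and RANKL the lowest in 15 sterol enzymes and 23.4% of all tested genes. This order takes no account of the size of the gaps, and for several genes the 3 libraries with RANKL lay close together.

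For the 12 members at least 2-fold lower with RANKL, the difference between M-CSF and RANKL that was regained with IL-3 was computed in FPKM. The median was 15.6%, from -4.77% for *Sc5d* to 37.6% for *Fads1*, with *Fdps* at 25.5%, *Insig1* at 24.6% and *Cyp51* at 24.4%. The 740 tested genes at least 2-fold lower with RANKL had a median of 59.6% and quartiles of 33.9% and 96.5%. In the cKO library the medians were 15.9% for the 12 members and 15.7% for the 740 genes. The share was higher with IL-3 in control cells than in cKO cells for 7 of the 12 members and for 675 of the 740 genes. The RANKL library both chose these genes and served as the base of the share, so these are descriptions of the libraries. In percent of the M-CSF level, the 12 members had medians of 34.1%, 44.8% and 42.7% in the RANKL, RANKL with IL-3 and cKO libraries.

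**Figure D4:**
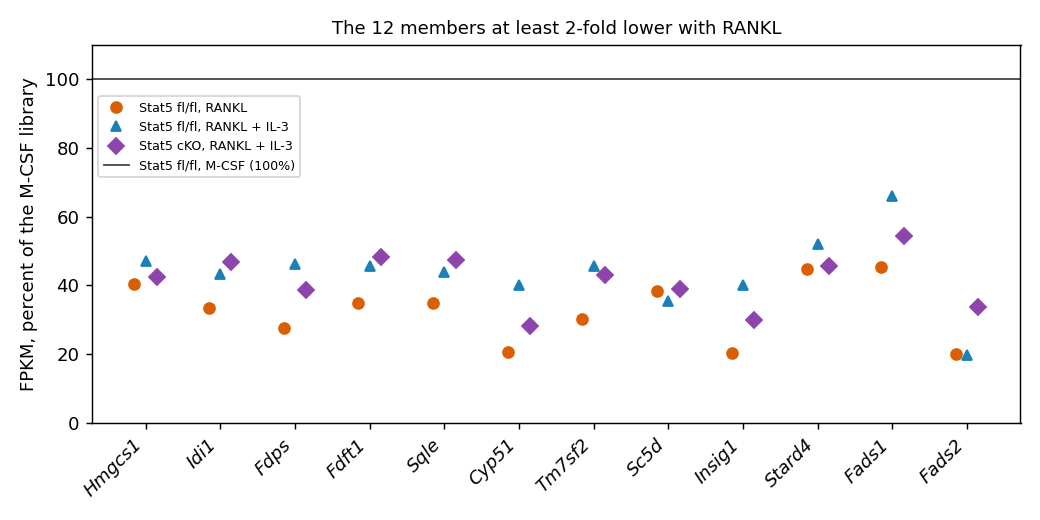
Levels of the 12 members at least 2-fold lower with RANKL, in percent of the FPKM of the M-CSF library (line at 100%). Points are the other 3 libraries, and all lie at or below 66.0%.

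The cKO library was compared with that of control cells, both under RANKL and IL-3. Of the 37 genes, 0 were 2-fold apart between the cKO and control libraries in either direction, against 2.11% of all tested genes higher and 4.28% lower. These shares are low, so a count of 0 among 37 genes is near them and does not set the members apart. For 30 of the 37 the counting interval of the ratio excluded 0. Such intervals were computed for the members only, and the median of all tested genes was itself above 0. The count of 30 therefore does not set the members apart either. The sterol enzymes had a median log2 ratio of -0.07, from -0.61 for *Mvd* to 0.61 for *Msmo1*, with 7 above and 11 below 0, against a median over all tested genes of 0.13. Relative to that median, 16 of 18 stood lower in cKO. For *Idi1*, *Fdft1*, *Sqle*, *Tm7sf2*, *Hsd17b7* and *Sc5d* among these, the gap to the median was smaller than the counting half-width, as for *Sqle* at -0.02 with a half-width of 0.08. *Mvd* stood at 17 FPKM in control and 10.7 FPKM in cKO cells, *Mvk* at 11.2 and 7.24 FPKM, and *Pmvk*, which acts between them, at 15.2 and 12.8 FPKM (log2 ratio -0.23). For *Mvk* the cKO library was the lowest of the 4. In 6 sterol enzymes, *Fdft1*, *Lss*, *Tm7sf2*, *Nsdhl*, *Hsd17b7* and *Sc5d*, the ratio lay within counting error of 0.

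The fatty-acid enzymes in the same comparison had a median log2 ratio of 0.10, which is -0.03 relative to the median of all tested genes, from *Scd2* at -0.57 to *Fads2* at 0.64. *Fasn* (0.63) and *Acaca* (0.44) stood higher in cKO than in control cells, close to their levels with RANKL alone. *Fads2* was the highest of the 37, at 3.76 FPKM in control and 6.42 FPKM in cKO cells. Among the regulators, *Insig1* stood lower (-0.39) and *Scap* higher (0.32). Osteoclast markers summed to 141 FPKM in the control and 518 FPKM in the cKO library and macrophage markers to 2409.5 and 1561 FPKM, and their part in these values was not tested.

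Most members, 26 of 37, were represented by 1 transcript and 11 by several. Both *Hmgcs1* transcripts stood lower with RANKL, from 18.8 to 8.39 FPKM for the more abundant and from 9.96 to 3.26 FPKM for the other. Both *Fdps* transcripts did too, from 98.0 to 28.5 and from 10.4 to 1.43 FPKM. *Acsl3* and *Acsl4* were less uniform. The main *Acsl4* transcript was lower with RANKL (12.9 FPKM) than with M-CSF (19.0 FPKM), and the next was higher (6.34 against 4.45 FPKM). The authors' program divides reads between transcripts of a gene by estimation, so these splits are less certain than the gene sums.

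A further list held 46 symbols of these pathways, in which the *Hacd* genes stood under both older and newer symbols. From it, 41 genes were found and 29 reached 1 FPKM, and only *Faxdc2* was not found. With RANKL, 2 of the 29 were at least 2-fold lower and 1 was higher, near or below the 6.88% and 5.44% of all tested genes, and the median log2 ratio was -0.18. *Me1*, the cytosolic malic enzyme that supplies NADPH for fatty-acid synthesis, stood at 10.3, 4.13, 5.80 and 4.99 FPKM. Members of the 3-hydroxyacyl-CoA dehydratase family, which act in fatty-acid elongation, went opposite ways. *Hacd4* stood at 9.76, 2.49, 7.87 and 2.60 FPKM and *Hacd1* at 17.1, 38.7, 22.5 and 37.7 FPKM. With IL-3 and RANKL against RANKL, *Hacd4* was the 1 gene of the 29 past 2-fold, at a log2 ratio of 1.34. Of all tested genes, 6.11% were at least 2-fold higher and 3.47% lower there. In cKO against control cells *Hacd4* was again the 1 past 2-fold, at -1.30, against 2.11% of all tested genes higher and 4.28% lower. Both counts are near or below the share in the same direction and do not set the list apart. Against M-CSF, 0 of the 29 were 2-fold apart in the library with RANKL and IL-3, against 1.42% of all tested genes lower and 2.50% higher, and the median was -0.10.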

How the data were processed

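RNA of 4 cultures, 1 per condition, was prepared with a TruSeq kit and sequenced on a HiSeq2000. Per the labels, reads were aligned with TopHat2 2.0.13 to mm10 and quantified with Cufflinks 2.2.1. The authors deposited 1 table of FPKM values for 33170 RefSeq transcripts. No header names the unit, which was taken from the tools and the values. Depth was estimated from the steps of low values, of which 72.1% to 74.3% lay within 0.2 of a whole fragment.

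Transcript values were summed per gene ID, and 36 members were matched by symbol and 1, *Msmo1*, by gene ID. Log2 ratios used a pseudocount of 1 FPKM. Genes under 1 FPKM in all 4 libraries and 46 small RNAs were left out. With 1 library per condition no test was possible, and 2-fold was used to count genes. Scripts ran in Python 3.11.15 with pandas 2.3.3 and numpy 2.4.6, and the counting of 2-fold genes was tested on simulated data. Groups came from the sample labels. The members, lists and motifs were chosen with earlier results of these data known, and the order of levels and the share regained were added after the values were seen. All 37 members were to be named, with other pathway genes only where at least 2-fold apart. Alternatives were another pseudocount, minimum, fold threshold, scaling, and the most abundant transcript per gene.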

Additional observations from a re-analysis of the deposited data

How the results depend on the processing

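No paired analysis was possible because each condition had 1 library, and for the same reason no replicate could be left out. With libraries scaled to a common median, the sterol medians were -0.99 with RANKL against M-CSF, 0.48 with IL-3 against RANKL and -0.20 in cKO against control, and the fatty-acid medians -0.35, 0.19 and -0.03. That scaling brought the members at least 2-fold lower with RANKL from 12 to 17 by adding *Hsd17b7*, *Srebf2*, *Scd1*, *Scd2* and *Acsl3*. It brought those at least 2-fold higher with IL-3 to 2 by adding *Insig1* at 1.02. It put the shares of all tested genes at 8.77% lower with RANKL and 7.66% higher with IL-3. It also turned the sign of small ratios of 2 members with RANKL (*Elovl1* and *Elovl6*), 3 with IL-3 (*Sc5d*, *Srebf1* and *Fads2*) and 8 in cKO (*Idi1*, *Fdft1*, *Sqle*, *Hsd17b7*, *Sc5d*, *Elovl1*, *Acsl1* and *Acsl3*). Scaling by the upper quartile gave a fatty-acid median of 0.01 in cKO. A pseudocount of 0.1 FPKM gave sterol medians of -0.96 for RANKL against M-CSF and -1.0 for RANKL with IL-3 against M-CSF. It brought the members at least 2-fold lower from 12 to 15 in the former (adding *Hsd17b7*, *Scd1* and *Acsl3*) and from 10 to 12 in the latter (adding *Tm7sf2* and *Scd1*). Of all tested genes, 9.19% and 2.54% were at least 2-fold lower with that pseudocount. With the most abundant transcript per gene, the fatty-acid medians were -0.41 and -0.14 in these comparisons, *Acsl3* passed 2-fold in the former at -1.12, and *Hmgcs1* was short of it in the latter at -0.78. At 1.5-fold, the numbers of members lower and higher were 22 and 2 for RANKL against M-CSF, 1 and 5 for IL-3 against RANKL, and 1 and 3 for cKO against control, and 17 were lower for RANKL with IL-3 against M-CSF. The shares of all tested genes were 13.9% and 15.6%, 12.7% and 12.1%, 8.89% and 8.43%, and 5.19%. At 4-fold, the numbers lower and higher were 3 and 0 for RANKL against M-CSF, against 1.51% and 1.15% of all tested genes. For RANKL with IL-3 against M-CSF they were 1 and 0, against 0.177% and 0.790%. For IL-3 against RANKL 0 were higher, against 1.63%. The share regained by sterol enzymes at 4-fold was 24.4%, that of *Cyp51* alone. Of the medians given here, that of the fatty-acid enzymes in cKO, 0.10 as reported, changed sign, and the causes of the shifts were not tested.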

Other observations

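Genes next to the pathway that the members do not cover took several courses, given here as values of single libraries in the order M-CSF, RANKL, RANKL with IL-3 and cKO. The proteases that cut SREBP free, encoded by *Mbtps1* and *Mbtps2*, stood at 20.6, 31.8, 18.8 and 24.9 FPKM and at 8.84, 13.2, 7.58 and 12 FPKM. Both were highest with RANKL, as were 40.4% of all tested genes. *Soat1*, which esterifies cholesterol for storage, stood at 39.2, 27.3, 52.6 and 30.1 FPKM, highest with IL-3 in control cells. *Por*, the electron donor of CYP51 and squalene epoxidase, stood at 137, 95.1, 79.8 and 101 FPKM.

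The mitochondrion makes fatty acids with its own enzymes. All 3 of those listed stood higher with RANKL than in the other libraries, each by less than 2-fold. RANKL was also the highest library for 10 of the 29 genes of the further list and for 40.4% of all tested genes. *Mcat* stood at 7.70, 10.1, 7.85 and 9.0 FPKM, *Oxsm* at 3.89, 6.02, 4.11 and 4.77 FPKM, and *Mecr* at 24.5, 31.7, 28.1 and 29.9 FPKM. These genes were picked from the list of pathway genes after their values were seen.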
